A study of Mus musculus with 3 samples.

Results

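LLC/luc BM 1st cells, the first bone-selected line, were compared with the parental LLC/luc P cells they came from, across all genes measured and the pathways those genes belong to. Lewis lung carcinoma (LLC) is a tumour line from the lung of a C57BL/6 mouse, and both cultures carry luciferase. LLC/luc P is the parental culture. LLC/luc BM 1st was grown in culture from metastatic lesions of the tibia after parental cells had been injected into the left ventricle of mice, so cells of the host bone could have been carried into the culture. LLC/luc BM 2nd was obtained from BM 1st by a further round of injection and bone lesion, and its values are printed beside the others. The cultures were grown in the same medium per the labels, and no other treatment is given. Each line was measured on 1 Illumina mouse bead array, 3 arrays in all. As no line was measured more than once, every difference lacks a replicate check, no test was possible, and precision is limited by the number of arrays. A gene's value is that of its probe with the largest mean log2 intensity across the 3 arrays. Of 19057 genes with a named probe, 10377 entered the comparison because they lay above background on the P or the BM 1st array, 8833 of them on both. The 828 genes above background in P cells alone and the 716 in BM 1st cells alone entered through the array on which they were brighter, so their ratios had to lean that way. Background was the 95th percentile of the probes for olfactory and vomeronasal receptor genes, which these cells are not known to use, at an intensity of 109 on the P array and 110 on the BM 1st array. The background is part of every intensity, so the ratio of a dim gene understates the change in its RNA.

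Bone lesions of lung cancer grow in a tissue of mineralised collagen, marrow stroma and blood-forming cells, where tumour cells meet hypoxia, inflammatory signals and matrix. Cells in division transcribe the genes of DNA replication in S phase through E2F factors and those of mitosis in G2 through complexes that bind the CHR element and CCAAT boxes of promoters. NF-kB is a transcription factor that induces chemokine genes together with its own inhibitors, and NRF2 is one that induces antioxidant genes when reactive compounds modify its repressor KEAP1.

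Between BM 1st and P cells 212 genes were higher and 186 lower by more than a log2 ratio of 1, which is 2.04% and 1.79% of the genes compared. These shares are the background for every count below. The median log2 BM 1st/P ratio was -0.01 and the robust SD 0.31. Among the receptor probes no ratio passed 1 and the largest was 0.48 in size, with an SD of 0.12. Of the genes above background on both arrays, 31 were more than 4-fold higher and 21 more than 4-fold lower, and 6 genes measured on the BM 1st array alone had bounds above 4-fold. Of the genes just inside the threshold, Hipk1 had a log2 ratio of 1.001 and Prodh of -1.001. Just outside it, Dbp stood at 0.998 and Dtymk at -0.99. The largest ratio belonged to Ccl7, a chemokine that draws monocytes, with intensities of 358, 12628 and 8458 on the P, BM 1st and BM 2nd arrays, a log2 BM 1st/P ratio of 5.14. Other large ratios, at genes that both arrays measured above background, were those of the lysozyme gene Lyz1 at 4.32, the quinone reductase gene Nqo1 at 3.77, the AMP deaminase gene Ampd3 at 3.64 and the glucuronyl transferase gene Ugt1a10 at 3.58. Nptx1, a pentraxin gene of neurons, read 147, 1378 and 344, a ratio of 3.23, and Xdh, the xanthine dehydrogenase gene, 270, 2114 and 1980, a ratio of 2.97. The interferon-inducible gene Ifi207 and the water channel gene Aqp1, which the study had chosen, were not above background in P cells and were at least 6.71-fold and 5.26-fold higher. The most negative ratios were those of the histone genes H2ac15 at -2.70 and H2ac12 at -2.55, the mitotic kinase gene Pbk at -2.52, Nnmt, which methylates nicotinamide, at -2.47, and the thymidylate synthase gene Tyms at -2.44. Nusap1, a spindle protein gene, Ankrd1, the surface antigen gene Ly6c1 and the nucleosome-binding protein gene Hmgn2 were at -2.42, -2.29, -2.21 and -2.15. The higher end thus reached farther from 0 than the lower end.

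**Figure D1:**
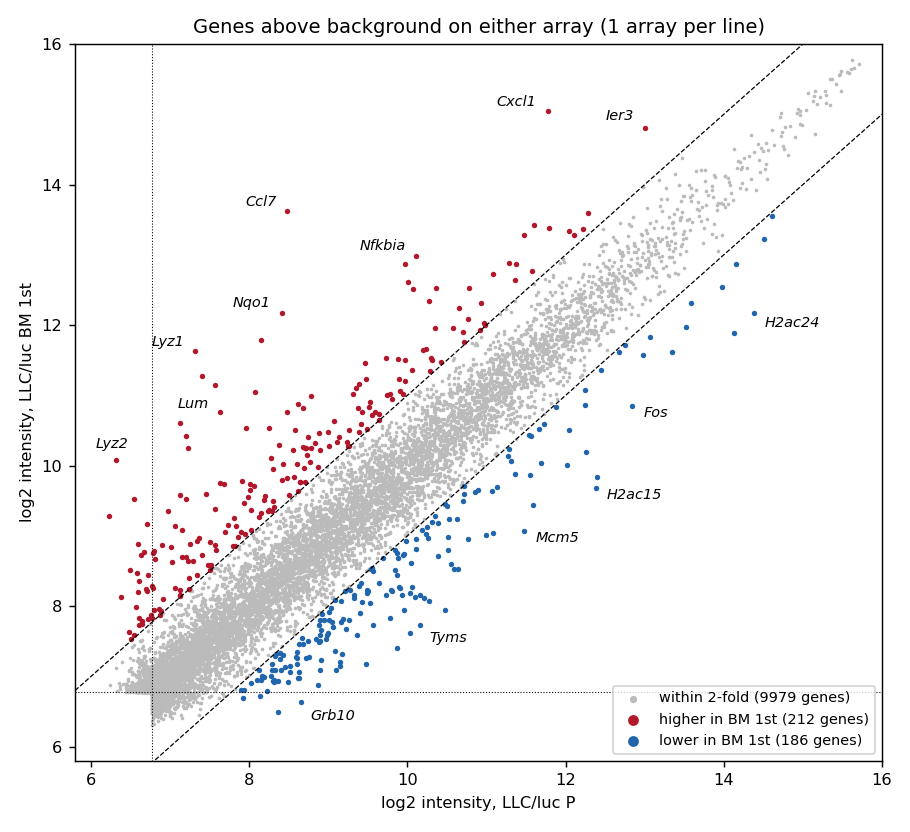
Log2 intensity in LLC/luc P (horizontal axis) against LLC/luc BM 1st (vertical axis) for the 10377 genes above background on either array, 1 point per gene and 1 array per line, with dashed lines at log2 ratios of 1 and -1 and dotted lines at the background of each array. The 212 higher genes (red) reach up to Ccl7 at 5.14, and the 186 lower genes (blue) down to H2ac15 at -2.70.

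Genes of mitosis and cytokinesis had lower intensities in BM 1st than in P cells. Of 52 listed genes with a named probe 40 entered the comparison, 27 of these fell past the threshold and none rose, where 1.79% of all genes fell. All 40 had ratios below 0, with a median of -1.33. The median was -1.36 over the 36 members above background on both arrays and -1.17 over all 52 with no filter. For BM 2nd/P the median of the 40 genes was 0.36, a comparison that shares the parental array. Among the kinases that drive mitosis, Aurka had intensities of 992, 247 and 1183 in P, BM 1st and BM 2nd cells, a 4.01-fold difference between P and BM 1st cells, and Plk1 had 1142, 285 and 1953, a log2 BM 1st/P ratio of -2.001. Birc5, the survivin subunit of the chromosomal passenger complex, read 1538, 369 and 2334, and Cdc20, the activator of the anaphase-promoting complex, 1463, 446 and 2358. In each of these 4 genes the BM 1st array was the low one and the P and BM 2nd arrays lay above it. The motor genes Kif23, Kif2c, Kif4, Kif22 and Kif11 fell by 2.04, 1.80, 1.57, 1.43 and 1.36 on the log2 scale, and the kinetochore genes Ndc80, Cenpa and Spc25 by 1.99, 1.40 and 1.39. Cdk1, the kinase of mitotic entry, fell by 1.21. When probes were averaged 26 of the 27 stayed past the threshold, and Anln stood at -0.68. Foxm1, a transcription factor of mitotic genes, read 209, 169 and 417, a ratio of -0.31 that did not pass the threshold.

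As examples, matches to the CHR element (TTTGAA on either strand) and to the CCAAT box (CCAAT on either strand) are in capitals in stretches of 5 of the fallen mitosis genes. The stretches come from the RefSeq promoter windows of GRCm38.p6, each before an annotated transcript start. They lie at chr4:117178850-117178935 (Kif2c, minus strand), chr11:99024190-99024272 (Top2a, the topoisomerase that untangles chromosomes, minus strand), chr4:118437344-118437421 (Cdc20, minus strand), chr7:80294386-80294471 (Prc1, a bundler of spindle microtubules, plus strand) and chr7:127042421-127042497 (Kif22, minus strand), and each is written 5′ to 3′ on the strand of its gene.
Kif2c: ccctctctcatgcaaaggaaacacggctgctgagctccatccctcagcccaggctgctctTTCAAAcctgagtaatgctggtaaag
Top2a: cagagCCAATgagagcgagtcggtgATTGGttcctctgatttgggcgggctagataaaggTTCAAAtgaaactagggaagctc
Cdc20: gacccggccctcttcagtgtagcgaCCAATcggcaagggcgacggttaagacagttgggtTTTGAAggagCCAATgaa
Prc1: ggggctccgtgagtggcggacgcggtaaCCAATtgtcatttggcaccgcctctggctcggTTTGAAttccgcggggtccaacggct
Kif22: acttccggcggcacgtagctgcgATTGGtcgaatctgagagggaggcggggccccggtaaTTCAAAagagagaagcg
The CHR match nearest the start lay between 12 and 103 bases before it in these 5 genes. A gene can have several annotated starts. The Kif2c stretch lies wholly inside the annotated span of its gene, and parts of the Top2a, Prc1 and Kif22 stretches do. Kif2c had no CCAAT box match in its windows. Kif23, Aurka, Plk1, Ndc80 and Cdca8 fell further and have a CHR match, but none wholly before the start, and were passed over. So were Kif4 and Cdca3, which fell further than Kif22. The windows hold 300 bases, 250 before the start and 50 after it. Both motifs were found in 24 of 37 windows of the mitosis genes compared (64.9%), against 4.76% of the windows of all genes compared and 6.95% of all 32851 windows. The 37 windows covered 33 of the 40 mitosis genes. Of the 493 genes compared with both motifs in a window, 38 fell (7.71%) and 5 rose (1.01%), and of the 7969 without both, 106 fell (1.33%) and 156 rose (1.96%). Most genes with both motifs therefore did not pass the threshold, and their median ratio was -0.06. A match is a description of the letters and not a measured binding site.

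Genes of DNA replication moved the same way with smaller ratios. Of 38 members compared 8 fell, none rose and the median was -0.69, with -0.72 over the 36 above background on both arrays and 0.21 in BM 2nd/P. Of the MCM helicase subunits, which unwind DNA, Mcm5 read 2857, 535 and 3728 in P, BM 1st and BM 2nd cells, a ratio of -2.42, and Mcm3 read 676, 240 and 646, a ratio of -1.49. Mcm10, which helps to start the helicase, read 880, 228 and 866, a ratio of -1.95. The other MCM subunits Mcm2, Mcm4, Mcm6 and Mcm7 lay between -0.55 and -0.91 and did not pass the threshold. Cdc45, Cdc6, Timeless, the ligase gene Lig1 and the clamp loader gene Rfc5 had ratios between -1.03 and -1.36. Of the 3 members with ratios above 0, Gins3 was at 0.82, Cdt1 at 0.50 and Rpa3 at 0.04. Averaged over their probes, Lig1 stood at -0.55 and Rfc5 at -0.52, within the threshold. An E2F motif (TTTCCCGC or TTTGGCGC, either strand) was found in 10 of 34 windows of these genes (29.4%), against 2.81% of windows of all genes compared and 1.56% of all windows. The 34 windows covered 29 of the 38 replication genes. Of the 284 genes compared with an E2F motif 8 fell (2.82%) and 4 rose (1.41%). The E2F match is in capitals in the stretches of Mcm5 and Cdc6, the loading factor of the helicase, chr8:75109300-75109387 and chr11:98907953-98908040, both on the plus strand.
Mcm5: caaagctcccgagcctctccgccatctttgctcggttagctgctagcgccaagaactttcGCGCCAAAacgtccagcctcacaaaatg
Cdc6: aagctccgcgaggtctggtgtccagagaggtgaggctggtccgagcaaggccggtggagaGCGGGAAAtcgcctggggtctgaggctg
In both the letters in capitals are the motif as read from the opposite strand. The Cdc6 stretch lies inside the annotated span of its gene, before a start within it.

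The enzymes that supply DNA precursors split within their list. All 5 genes of the 21 compared that fell act in the supply of deoxynucleotides, namely Tyms at -2.44, the thymidine kinase gene Tk1 at -1.83, the dUTPase gene Dut at -1.37 and the ribonucleotide reductase genes Rrm2 at -1.27 and Rrm1 at -1.09. Tyms read 1147, 212 and 1394 in P, BM 1st and BM 2nd cells, and Tk1 755, 213 and 1731. Tk1 stood at -0.86 when averaged over its probes, which is within the threshold. The genes of purine and pyrimidine ring synthesis in the same list lay on both sides of 0, with Umps at -0.75, Gart at -0.33, Cad at 0.73 and Impdh1 at 0.70. The median of the list was -0.35.

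Replication-dependent histone genes, transcribed in S phase, were lower in BM 1st cells mainly in the H2A class. Of 40 compared 10 fell, none rose and the median was -0.66, against 0.42 in BM 2nd/P. All 10 that fell were among the 14 H2A genes, whose median was -1.61. The medians of the 10 H2B genes, 7 H3 genes and 9 H4 genes were -0.73, -0.73 and -0.20, with none past the threshold. H2ac15 read 5347, 823 and 8725 in P, BM 1st and BM 2nd cells, and H2ac24 read 21271, 4613 and 32459, ratios of -2.70 and -2.20. The H2A genes are nearly identical in sequence, so a probe may read several of them and the 10 are not 10 separate readings. Of other chromatin genes Hmgb2 was at -1.79, the variant histone gene H2ax at -1.53, the acetyltransferase gene Hat1 at -1.06 and the chaperone gene Asf1b, 2.07-fold lower.

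Regulators of the cell cycle outside the replication and mitosis genes moved less. Of 20 cyclin, kinase and E2F genes of G1 and S phase 1 fell, Mybl2 at -1.31, whose other probe above background gave 0.01 and whose average was -0.65, and none rose, with a median of -0.21. Ccnd1, the gene of cyclin D1, read 11558, 7209 and 8427, a ratio of -0.68, and E2f1 read 706, 1049 and 915, a ratio of 0.57. Of 21 CDK inhibitors and p53 targets none passed the threshold in either direction and the median was -0.01. Cdkn1a, the gene of the CDK inhibitor p21, read 4605, 5317 and 2874, a ratio of 0.21, and Mdm2, the ligase that p53 induces, 3891, 4813 and 2375, a ratio of 0.31. Across the 6 lists of replication, nucleotide supply, mitosis, G1 and S regulators, repair and chromatin, 49 of 154 members compared fell (31.8%) and none rose. These 49 were 26.3% of the 186 lower genes. Growth state of the culture at harvest, such as its density, was given by no source and cannot be told apart from the line, because there was 1 culture of each.

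**Figure D2:**
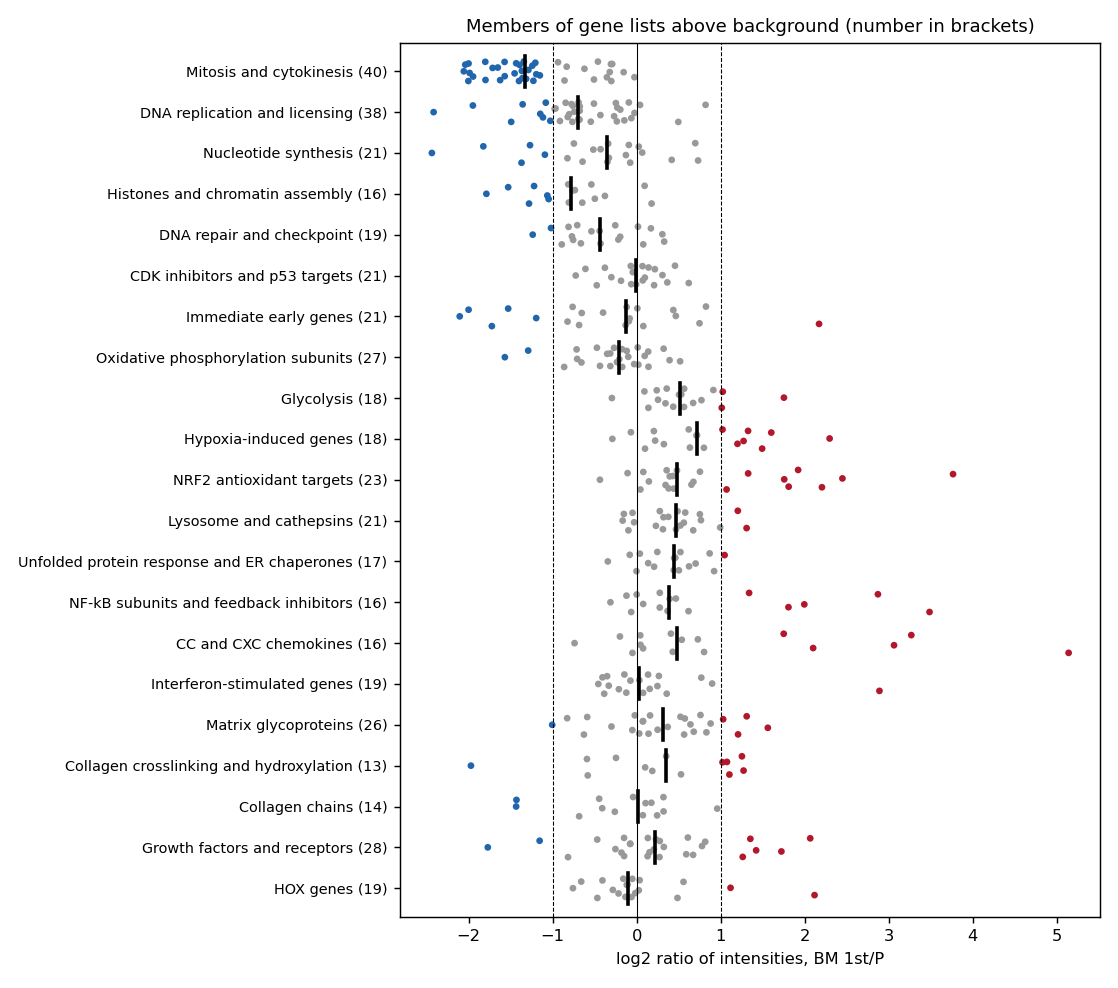
Log2 ratio of BM 1st to P intensities (horizontal axis) for the members of the lists named at left above background on either array, with 1 point per gene, black bars at list medians and dashed lines at 1 and -1. The mitosis list lies wholly below 0 with a median of -1.33, while the chemokine, NF-kB, NRF2 and hypoxia lists have points past 1 and medians between 0.38 and 0.72.

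Chemokine genes were among those with the largest ratios in BM 1st cells. Of the 16 listed CC and CXC genes compared 5 rose and none fell, where 2.04% of all genes rose, and the median was 0.48. It was 0.58 over the 8 members above background on both arrays and 0.18 over the 28 with a named probe and no filter. Cxcl1, which draws neutrophils, read 3497, 33698 and 38855 in P, BM 1st and BM 2nd cells, a ratio of 3.27. Ccl2, a ligand of monocytes, read 713, 2397 and 3737, a ratio of 1.75. Cxcl2 and Ccl9 were not above background in P cells, at 74.7 and 98.99, and read 624 and 424 in BM 1st cells, so they were at least 5.70-fold and 3.88-fold higher. Ccl9 stood at 150 in BM 2nd cells. Both BM arrays lay above P for these 5 genes. The study had picked Ccl7 and Ccl2 from the BM 2nd and P arrays, which makes them no independent evidence of a direction, and 3 of the other 14 rose. Cxcl12, which attracts cells to bone marrow, read 125, 128 and 120, and its receptor Cxcr4 was not above background, at 96.7, 88.1 and 100.4.

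Some of the genes that NF-kB induces rose. Of 16 subunits and feedback genes compared 5 rose and none fell, with medians of 0.38 in BM 1st/P and 0.75 in BM 2nd/P. Tnfaip3, which encodes the deubiquitinase A20, read 140, 1563 and 1350 in P, BM 1st and BM 2nd cells, a ratio of 3.49. Nfkbia, the gene of the inhibitor that holds NF-kB in the cytoplasm, read 1107, 8103 and 6687, a ratio of 2.87. Nfkbiz, a nuclear inhibitor protein gene, and the early response gene Ier3 were at 2.00 and 1.81, and Zfp36, whose protein degrades cytokine mRNAs, read 955, 2415 and 9337, a ratio of 1.34. Other feedback genes did not pass, with Bcl3 at 0.47, Nfkbie at 0.39, Tnip1 at 0.37 and Nfkbib at 0.08, and the subunit genes Rela, Relb and Nfkb2 had ratios of 0.27, 0.00 and -0.31. A kappa B motif (GGGA, any 1 base, then TTTCC, either strand), searched after the values were seen, was found in 3 of 17 windows of this list (17.6%) and 2 of 14 windows of the chemokine genes (14.3%), against 0.398% of windows of all genes compared and 0.411% of all windows. Of the 38 genes compared with the motif 4 rose and 2 fell. The match is in capitals in the stretches of Cxcl1 at chr5:90891114-90891203 and Cxcl2 at chr5:90903742-90903831, neighbours on the plus strand, and of Nfkbia at chr12:55492648-55492736 on the minus strand.
Cxcl1: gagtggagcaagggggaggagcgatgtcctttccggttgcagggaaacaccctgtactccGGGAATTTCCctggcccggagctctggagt
Cxcl2: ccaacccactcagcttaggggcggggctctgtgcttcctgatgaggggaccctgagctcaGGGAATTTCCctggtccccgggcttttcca
Nfkbia: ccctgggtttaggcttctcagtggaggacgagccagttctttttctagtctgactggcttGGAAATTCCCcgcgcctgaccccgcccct
The 3 matching windows of the NF-kB list belong to Nfkbia and to Nfkb2, which was at -0.31. Windows of Tnfaip3, which rose most in this list, and of Ier3 and Zfp36 held no match to these letters. Nfkbiz had no window. The windows covered 14 of the 16 genes compared in the NF-kB list and 11 of the 16 in the chemokine list. Ccl7 and Ccl2 had no window, and Ccl9 had no match.

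Other inflammatory genes moved in smaller numbers. Of 14 genes compared in the cytokine and receptor list 2 rose, Ptges and Il33. Ptges, an enzyme gene (prostaglandin E synthase) kept in that list, was at 1.38. The alarmin gene Il33 was not above background in P cells and was at least 2.68-fold higher. Outside the list, the cytokine gene Il34 rose at 1.18. Il6 was not above background, at 99.5 in P and 100.1 in BM 1st cells, and Ptgs2 read 130, 175 and 119, a ratio of 0.42. Of 19 interferon-stimulated genes 1 rose, the transcription factor gene Irf1, at 1005, 7449 and 9813 and a ratio of 2.89, and the median was 0.03. Irf1 was chosen by the study on these arrays, and none of the other 18 passed. The interferon-inducible gene Ifi207, which is outside this list, was at least 6.71-fold higher. None of 16 genes of MHC class I presentation passed the threshold. Slpi, an inhibitor of leukocyte proteases, read 150, 1219 and 561, a ratio of 3.02.

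NRF2 target genes were higher in BM 1st cells and close to parental levels in BM 2nd cells. Of 23 compared, all above background on both arrays, 8 rose, none fell and 21 had ratios above 0, with medians of 0.48 in BM 1st/P and 0.01 in BM 2nd/P. Nqo1 read 340, 4629 and 717 in P, BM 1st and BM 2nd cells, a ratio of 3.77. Its other probe above background read 111, 132 and 107, a ratio of 0.25. Srxn1, which repairs oxidised peroxiredoxins, read 1074, 5863 and 1278, and Slc7a11, the cystine importer gene, read 441, 2032 and 271, ratios of 2.45 and 2.20. For Srxn1 and Slc7a11 the P and BM 2nd arrays were both low and the BM 1st array alone was high. Gclm, the regulatory subunit of glutathione synthesis, read 383, 1449 and 503, and the biliverdin reductase gene Blvrb 2856, 10007 and 3268, ratios of 1.92 and 1.81. Esd, Cbr3 and the catalase gene Cat were at 1.76, 1.33 and 1.07. Txnrd1 and Hmox1, textbook targets of the factor, read 187, 299 and 141 and 124, 163 and 120, ratios of 0.68 and 0.39 that did not pass. The genes of the factor itself, Nfe2l2, and of its repressor, Keap1, were at 0.38 and -0.11.

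The core of the antioxidant response element (TGACNNNGC, either strand) was found in 11 of 28 windows of the NRF2 targets (39.3%), against 13.9% of windows of all genes compared and 12.4% of all windows. The 28 windows covered 21 of the 23 targets compared. Among the 8 that rose, the windows of Gclm and Srxn1 held a match and those of the other 6 did not. Over all 1396 genes compared with a match 33 rose (2.36%), against 1.81% of the 7066 without. The match of Gclm, in capitals, lies 126 to 134 bases before the start in this stretch of the plus strand, chr3:122245363-122245451.
Gclm: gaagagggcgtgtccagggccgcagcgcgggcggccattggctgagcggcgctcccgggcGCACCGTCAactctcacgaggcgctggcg
Enzymes that act beside these targets rose in part. Taldo1, a transaldolase of the pentose phosphate pathway, read 3104, 10962 and 3488 in P, BM 1st and BM 2nd cells, a ratio of 1.82, and was the 1 of 8 genes of that pathway past the threshold. Gstm1 and Gsta4, glutathione transferases, were at 1.37 and 1.15 among 14 compared, and the median of that list was 0.06. Gstm1 stood at 0.99 when averaged over its probes. In the P450 and glucuronyl transferase list 2 of 10 rose, Ugt1a10 at 3.58 and Ugt1a7c at 1.97. Ugt1a10, which read 190, 2272 and 3148, was chosen by the study. The Ugt1a genes are alternative first exons of 1 locus with shared last exons, so their probes may read each other.

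**Figure D3:**
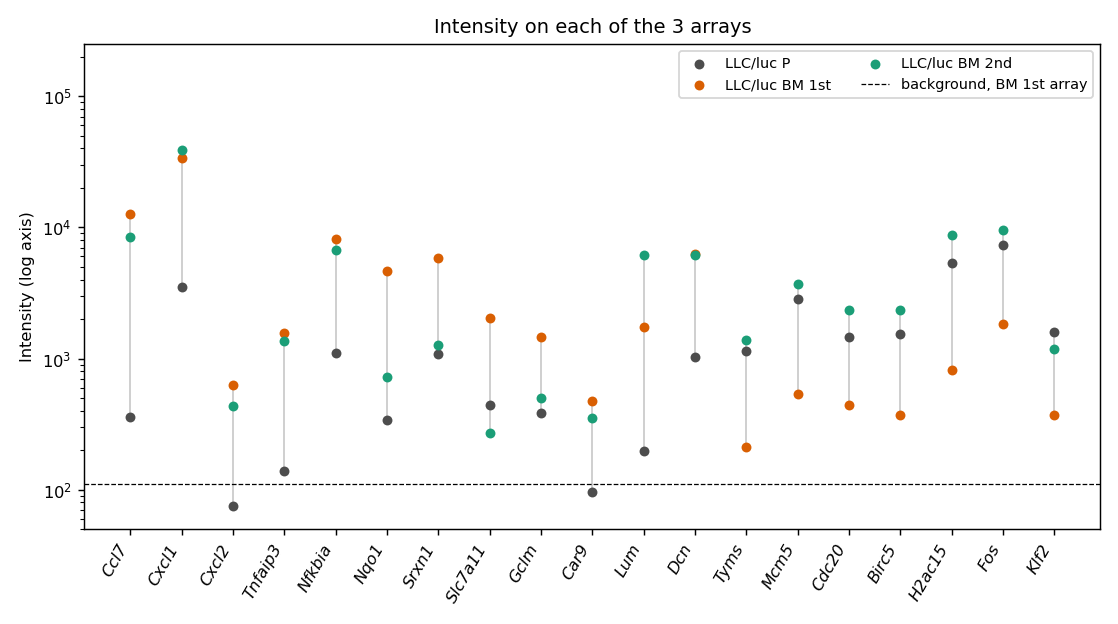
Intensity (vertical log axis) of named genes on the P, BM 1st and BM 2nd arrays, 1 array per line, with the background of the BM 1st array as a dashed line. Srxn1, Slc7a11 and Gclm were high on the BM 1st array alone, Ccl7, Cxcl1 and Nfkbia were high on both BM arrays, and Tyms, Mcm5, Cdc20, Birc5, H2ac15, Fos and Klf2 were low on the BM 1st array alone.

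Hypoxia-induced genes were higher in BM 1st cells. Of 18 compared 7 rose, none fell and 16 had ratios above 0, with medians of 0.72 in BM 1st/P and 0.48 in BM 2nd/P. The carbonic anhydrase gene Car9 was not above background in P cells, at 96.5, and read 474 on the BM 1st array and 355 on the BM 2nd array, a difference from P to BM 1st of at least 4.33-fold. Bhlhe40, a transcriptional repressor gene, read 343, 1041 and 1159, and the adrenomedullin gene Adm 147, 414 and 401, ratios of 1.60 and 1.49. Egln3, an oxygen-sensing hydroxylase gene, was at 1.20. With probes averaged 5 of the 7 stayed past the threshold, and Egln3 and P4ha1 stood at 0.96 and 0.94. Vegfa, the angiogenic growth factor gene, read 3032, 3494 and 2012, a ratio of 0.20 that did not pass. Angpt2, which destabilises vessels, read 248, 1489 and 751, a ratio of 2.59.

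Genes of glycolysis had positive ratios of smaller size. Of 18 compared 17 had ratios above 0 and 3 rose, Aldoc, Eno2 and Aldoa, with medians of 0.52 in BM 1st/P and 0.57 in BM 2nd/P. Aldoc was not above background in P cells and was at least 2.56-fold higher, and Aldoa read 1931, 3897 and 3509, a ratio of 1.01. Slc2a1, the gene of a glucose transporter, read 3434, 6464 and 3013, a ratio of 0.91. Of 27 subunit genes of oxidative phosphorylation and their partners none rose and 2 fell, Chchd10 at -1.57 and Cox6a2 at -1.29, and the median was -0.21. These 2 genes read 846, 285 and 106 and 727, 297 and 127 and so were lowest in BM 2nd cells.

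Stress genes did not move as 1 group. In the integrated stress response list 3 of 20 rose and 2 fell, with a median of -0.29. Trib3, a pseudokinase gene induced by ATF4, read 8611, 3642 and 900 in P, BM 1st and BM 2nd cells, and Ppp1r15a, whose product restores translation, 2630, 940 and 626, ratios of -1.24 and -1.48. Fgf21, a stress-induced hormone gene, read 332, 1251 and 117, a ratio of 1.91, and Nupr1 2022, 4104 and 1229, a ratio of 1.02. Asns and Ddit3 were at -0.01 and -0.31. Of 17 genes of the unfolded protein response 1 rose, the disulfide isomerase gene Pdia4, 2.07-fold higher, and 14 had ratios above 0, with a median of 0.45. Of 21 lysosomal genes 2 rose, the cholesterol exporter gene Npc1 at 1.31 and the cathepsin gene Ctsl at 1.20, and the median was 0.47. Npc1 stood at 0.93 when averaged over its probes.

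Matrix genes moved in both directions in BM 1st cells. Over the 5 matrix lists together 13 of 75 genes compared rose and 7 fell, with a median of 0.19. The study had picked 8 of these genes from the BM 2nd and P arrays, so they do not bear on direction independently, and among the other 67 genes 7 rose and 7 fell with a median of 0.16. Of the small leucine-rich proteoglycans, which bind collagen fibrils, Lum read 198, 1742 and 6133 and Dcn 1027, 6259 and 6174 in P, BM 1st and BM 2nd cells, ratios of 3.14 and 2.61. Bgn read 126, 654 and 1168, a ratio of 2.37, and Ogn fell, at 1181, 277 and 1153 and a ratio of -2.09. Lum was thus between the other arrays in BM 1st cells, while Dcn had reached its BM 2nd level. These 4 were the members of 12 with a probe that lay above background.

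No collagen gene compared rose, but Col6a3, which the study lists among its most upregulated genes, was not one of those compared. Of 14 compared 2 fell, Col6a1 at 2252, 833 and 4792 and Col6a2 at 390, 145 and 725, each at a ratio of -1.43. Col6a2 stood at -0.89 when averaged over its probes. The median of the list was 0.02 and turned to -0.26 over the 9 above background on both arrays. Pcolce, which enhances collagen processing, fell, at 2035, 519 and 4625 and a ratio of -1.97. Of the hydroxylase genes that modify collagen, Plod2 rose at 1.25, Plod1 at 1.07, P4ha2 at 1.27 and P4ha1 at 1.02, while Plod3 was at 0.53, P3h3 at 0.35 and P3h2 at -0.58. P4ha1 stood at 0.94 when averaged over its probes, and the P4ha genes also stand in the hypoxia list. Plod2 read 612, 1459 and 829, higher in BM 1st than in either other line. Of the matrix glycoproteins Dpt, Thbs2, Aebp1 and Mgp rose among 26 compared, at 1.56, 1.31, 1.21 and 1.03, and Fbln1 fell at -1.01 but stood at -0.73 when averaged over its probes. Thbs2, a thrombospondin gene, read 4970, 12315 and 6888. Of other genes the study chose, Ecm1 was at 0.76 and Tnc at -0.30. Mgp and Loxl1, which were not above background in P cells, were at least 1.69-fold and 1.96-fold higher, bounds under the 2-fold threshold.

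Of 18 matrix proteases and inhibitors 1 rose and 2 fell. Mmp3, the stromelysin gene, read 358, 1732 and 1626 in P, BM 1st and BM 2nd cells, a ratio of 2.28, with 2.49 and 2.11 at its other probes. The collagenase gene Mmp13 fell, at 479, 202 and 181 and a ratio of -1.25, but stood at -0.44 when averaged over its probes. The plasminogen activator gene Plat fell at -1.14. Of 22 integrin and focal adhesion genes 1 fell, Itgb5, 2.08-fold lower, and none rose. Cd9, a tetraspanin gene, and Pvr, an adhesion receptor gene, rose at 1.60 and 1.18 among 18 adhesion genes, and Pvr stood at 0.95 when averaged over its probes. In the EMT list Sox9 rose at 1.64 and Fgf10 at 1.35 and Snai2 fell at -1.06, out of 15 genes with a median of 0.09. Vim, the vimentin gene, was at -0.19, and S100a4 read 782, 413 and 1853, a ratio of -0.92. None of 12 epithelial keratin and junction genes passed the threshold.

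Growth factor genes and early response genes changed in part. Ptn, the heparin-binding factor pleiotrophin, read 1243, 5201 and 14580 in P, BM 1st and BM 2nd cells, a ratio of 2.07, and the receptor gene Pdgfra 258, 851 and 1068, a ratio of 1.72 that was 0.87 when averaged over its probes. Btc, Fgf10 and Pdgfa rose at 1.42, 1.35 and 1.26. Fgf7 and the receptor gene Egfr fell, at -1.77 and -1.15, and Egfr read 1101, 495 and 1482 but stood at -0.61 when averaged over its probes. In all 5 of 28 rose and 2 fell. Of 21 immediate early genes, which growth signals switch on within minutes, 5 fell and 1 rose, with a median of -0.13. Fos read 7346, 1836 and 9493, Egr1 10362, 3138 and 13841 and Klf2 1593, 370 and 1192, ratios of -2.001, -1.72 and -2.11. Fosb was at -1.53 and Egr3 at -1.20, the last with 0.33 at its other probe and -0.43 on average. Low values on the BM 1st array alone were thus seen for Fos and Egr1 as for the mitosis genes. Dusp4, a MAP kinase phosphatase gene, rose, at 1311, 5902 and 1799 and a ratio of 2.17, while the ERK phosphatase gene Dusp6 was at -0.09.

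Markers of host cells were examined because the line was grown out of bone. Of 24 leukocyte markers with a named probe 5 lay above background on the P array, 14 on the BM 1st array and 10 on the BM 2nd array, and their summed intensity was 2599, 7441 and 4168. Of the 15 compared 4 rose, Lyz1, Lyz2, Laptm5 and Fcer1g, none fell, and 14 had ratios above 0. Only 4 of the 15 lay above background on both arrays. Most of the others entered through the BM 1st array, so their ratios had to lean that way. The median ratio was 0.23 over the 15, 0.50 over those above background on both arrays and 0.18 over all 24 with no filter. Lyz1 read 159, 3169 and 1190 and Lyz2 79.5, 1078 and 365, and for Lyz2 the difference was at least 9.84-fold. Laptm5, a lysosomal protein gene of blood cells, read 90.1, 367 and 184, and Fcer1g, a signalling chain of Fc receptors, 95.4, 255 and 128, at least 3.36-fold and 2.33-fold higher. The lysozyme genes are near-identical neighbours, and of their other probes 1 of Lyz2 lay above background, at a ratio of 2.23. Without the lysozymes the sums were 2360, 3194 and 2612, and without all 4 markers that rose they were 2175, 2572 and 2301. Of the 20 markers left, 4, 10 and 6 lay above background on the P, BM 1st and BM 2nd arrays. Among these 20, Ptprc, the common leukocyte antigen gene, was at 102, 111 and 104 and Itgam at 97.7, 83.5 and 83.3. Tyrobp was at 107, 107 and 97.5 and Csf1r at 115, 128 and 116, values near background. The part of leukocytes in the chemokine, lysosomal and other differences was not tested. In a bulk sample, fewer cells of a type and less RNA per cell cannot be told apart.

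**Figure D4:**
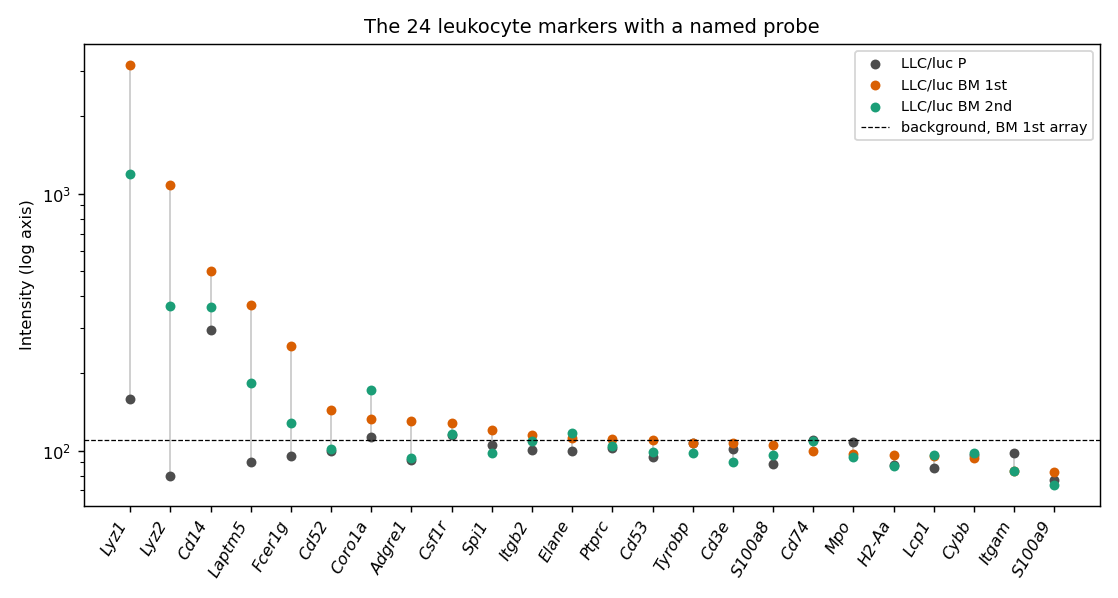
Intensity (vertical log axis) of the 24 leukocyte markers with a named probe on the P, BM 1st and BM 2nd arrays, 1 array per line, ordered by the BM 1st value, with the background of the BM 1st array as a dashed line. Lyz1, Lyz2, Laptm5 and Fcer1g stand apart on the BM 1st array, and most other markers, Ptprc and Itgam among them, lie near the line on every array.

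Markers of other host cells gave fewer differences. None of 7 erythroid markers with a probe was above background in P or BM 1st cells. Of 18 fibroblast and marrow stroma markers 13 were compared, Lum, Dcn, Pdgfra and Dpt rose and Fbln1 fell, with summed intensities of 14999, 23934 and 30168 and a median ratio of 0.15. The study chose Lum, Dcn and Dpt, and 1 of the other 10 rose. The fibroblast collagen genes Col1a1 and Col1a2 read 96.0, 120 and 412 and 110, 107 and 104. They were near background on the P and BM 1st arrays, so their ratios of 0.32 and -0.04 tell little. Col3a1 read 1107, 833 and 1946, a ratio of -0.41, and Pdgfrb, Thy1 and Postn were not above background on any array. Expression by the tumour cells and by stroma carried over cannot be told apart. Of 10 osteoclast markers 5 were compared and none passed, and of 9 osteoblast and osteocyte markers 5 were compared and Phex, an endopeptidase gene of phosphate handling, rose, at 225, 611 and 149 and a ratio of 1.44. Bglap, the osteocalcin gene, was at 83.3, 81.8 and 83.5. None of 11 endothelial, 9 skeletal muscle or 15 lung epithelial markers with a probe passed the threshold, and of 8 adipocyte markers the lipase gene Lpl rose at 1.81. The labelled lung origin was not visible in the lung epithelial markers, as Sftpc and Nkx2-1 were not above background and Krt8 and Krt18 were, at 1381, 997 and 2509 and at 2025, 2280 and 1274.

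**Figure D5:**
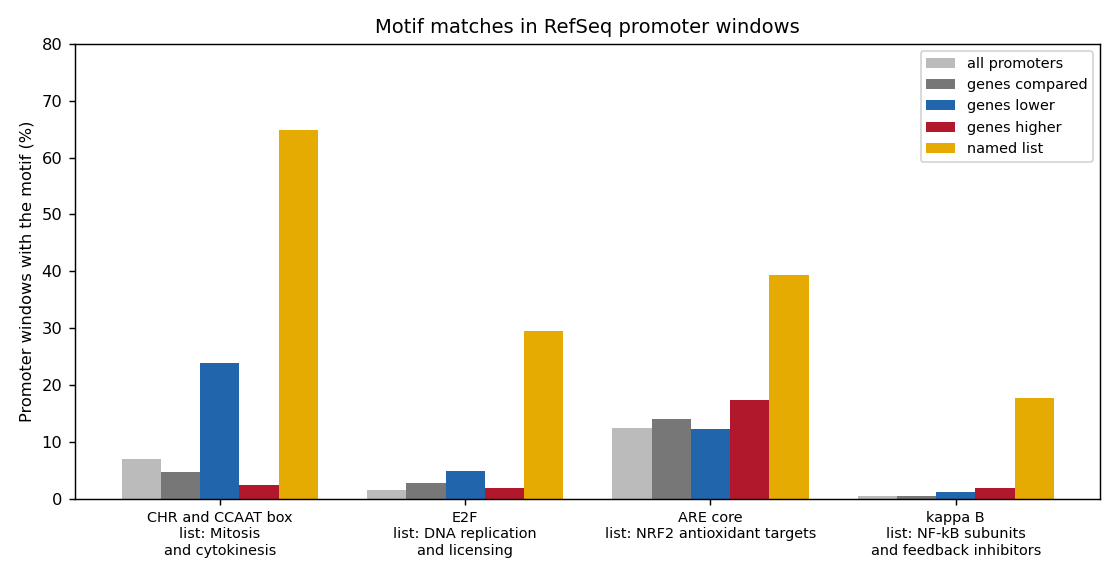
Share of 300-base RefSeq promoter windows (vertical axis, percent) with the CHR element and CCAAT box together, an E2F motif, the antioxidant response core or a kappa B motif, for all promoters, all genes compared, the lower genes, the higher genes and the list named under each motif. The CHR and CCAAT pair was found in 23.8% of windows of the lower genes and 2.34% of those of the higher genes, and the lists stand above all promoters for each motif.

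Other probes of the same genes gave a further reading of the same RNA on the same arrays. Of the 398 genes past the threshold 167 had another probe above background, and its ratio had the same sign in 162, in 90 of 92 higher and 72 of 75 lower genes. Past the threshold itself were 65 of these. In the mitosis list 17 of 40 genes had such a probe, all 17 with the same sign, and the median over these other probes was -0.96 beside -1.39 for the chosen ones. In the NRF2 list 10 of 10 had the same sign, with medians of 0.51 and 1.54. Ccl7 had 4.92 at its other probe and Nfkbia 1.90. The other probes gave the opposite sign for Egr3, Mybl2, Myo1e, Pisd-ps3 and Tmem176a. Ratios depended on level, as the 2595 dimmest genes held 3 of the 212 higher genes and none of the lower, and their robust SD was 0.21 against 0.38 in the 2594 brightest.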

How the data were processed

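Illumina mouse bead arrays held total RNA of LLC/luc P, BM 1st and BM 2nd cells, 1 array per line. The authors deposited linear intensity values for 45281 probes, with GenomeStudio 2011.1 named in the submitters' processing notes. How they were normalized was not given in the sources used here. Sorted by size, the intensities of the arrays match to within 0.274, as quantile normalization leaves them, and ratios are relative to each array's whole distribution. They run from 60.2 to 56032 with a median of 101, so a background level remains in them. Whether any background had been subtracted before was not given.

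Ratios on the log2 scale were taken in Python 3.11.15 (pandas 2.3.3, numpy 2.4.6), and figures drawn in matplotlib 3.10.9. Probes were named by the platform annotation, and old symbols were replaced through RefSeq's GRCm38.p6 gene table. It pairs 34885 probes with 1 gene and 18 with several, and 10378 are unnamed here. The background level rests on 1504 receptor probes and their 95th percentile (107 in BM 2nd). For 3231 genes with 2 or more probes above background, ratios of probes had a median SD of 0.13. A bound, given where 1 array was above background, divides the bright intensity by the dim one or by the background, whichever is higher. "Rose" and "fell" are used of genes with a log2 ratio past 1 or -1.

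The gene lists, 51 pathway lists and 9 marker lists with 1200 of 1291 symbols paired with a probe, and the choice of this comparison were made with earlier results of these data known. Named genes were drawn from the 15 largest ratios each way among genes above both backgrounds, the 8 largest bounds each way, up to 5 members of each list with the largest ratios, all members past the threshold of lists with at least 5, the genes the study names, markers, and genes just inside and outside the threshold. Not every such gene is named, 1 is not reported here, and any other gene was named after its values were seen. Promoter windows came from RefSeq and matched 8462 of the genes compared. Counting was tested on simulated data. With 1 array per line nothing was tested across replicates. Alternatives varied the filter, background, centring, probe choice and threshold. Other assays of the study are not analysed here.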

Additional observations from a re-analysis of the deposited data

How the results depend on the processing

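With the background subtracted 602 genes were higher and 569 lower, as subtraction by construction widens the ratios of dim genes, and at a threshold of 1.5 there were 95 and 59. The counts were 185 and 182 for genes above background on both arrays, 218 and 183 with ratios centred, and 178 and 155 averaged over probes. With no filter and with the 99th percentile as background they were 212 and 186. Of 177 genes past the threshold that belong to a list or a naming rule none changed sign, 23 were no longer past it when averaged over probes and 3 when centred (Prodh, Dcps and Fbln1). Besides those given above, the 23 include Clspn at -0.84, H1f10 at -0.88 and H2ac20 at -0.64. Of 51 list medians 0 moved by more than 0.121, the SD of the receptor probes, when centred, 7 when averaged over probes, 9 over genes above background on both arrays, 9 with the 99th percentile, 13 with no filter and 18 with the background subtracted, where the medians of mitosis, NRF2 and hypoxia genes were -1.78, 0.85 and 1.13. No paired analysis was possible because each line has 1 array. Genes near background have only a bound or a ratio that understates the change, a difference in RNA quality between the arrays was not tested, and differences between cultures of a line were not measured.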

Other observations

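Among HOX genes, which set positional identity, the 2 that rose of 19 compared were of the HoxC cluster, namely Hoxc6 at 198, 861 and 962 in P, BM 1st and BM 2nd cells, a log2 BM 1st/P ratio of 2.12, and Hoxc9, not above background in P cells, at 108, 235 and 276 and at least 2.15-fold higher. Between them on the chromosome Hoxc8 read 115, 107 and 123. Of 7 imprinted growth genes compared 2 fell. Grb10, which restrains insulin signalling, read 403, 99.6 and 88.1, at least 3.67-fold lower in BM 1st cells, and Ndn 298, 111 and 95.3, a ratio of -1.42. Both stayed low in BM 2nd cells, and the other Grb10 probe above background read 115, 111 and 111. Fxyd6, an ion pump regulator gene, and Dlgap5, a spindle protein gene, were at least 3.01-fold and 2.55-fold lower. Nrp1, a semaphorin receptor gene that the study chose, read 174, 272 and 522, a ratio of 0.65.

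Of genes around Ccl7 on chromosome 11, Ccl2 was at 1.75 and Ccl11 at 0.05. Around Cxcl1 on chromosome 5, Pf4 read 106, 347 and 118, a difference of at least 3.17-fold, Cxcl2 rose, and Cxcl3 was not above background, at 85.3, 93.9 and 78.6. The placental prolactin family genes Prl2c2, Prl2c3 and Prl2c4 read 438, 439 and 312 in BM 1st cells and 102, 111 and 109 in P cells, but they are near-identical and their probes may read each other. By chromosome the median ratio was lowest on 14, at -0.18, where 1 gene rose and 11 fell of 340 compared, and highest on 15, at 0.06. On chromosome 6, 22 rose and 8 fell of 503.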
